A study of Mus musculus with 12 samples.

Results

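The 9 genes described here encode enzymes and regulators that build and break down glycogen. They were chosen by name (Gys1, Gbe1, Ugp2, Pgm2, Pygm, Phka1, Phkg1, Ppp1r3a and Ppp1r3c) among 17752 genes with deposited expression, and all 9 were found and passed the filter on low values. RNA-seq covered the extensor digitorum longus muscle (EDL) of the hind limb, which is made up of fast-twitch fibers, in male mice of 4 groups with 3 libraries each. The strNrip1-/- mice carried floxed Nrip1 alleles together with Cre recombinase driven by the muscle creatine kinase promoter, which is active in heart as well as in skeletal muscle, and the WT mice were Cre-negative littermates that carried the floxed alleles too. Nrip1 encodes RIP140, a nuclear receptor corepressor. Floxed mice were on C57BL/6J and the Cre line on C57BL/6JN. Mice of each genotype stayed sedentary or had a running wheel from 8 weeks of age and for 8 weeks, and wheels were removed before tissue was taken. The groups are therefore sedentary labelled WT, sedentary labelled strNrip1-/-, trained labelled WT and trained labelled strNrip1-/-. The study asked what loss of RIP140 does to fast muscle and to its response to training.

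Nrip1 went against the genotype labels, which is why "labelled" is used throughout. Its level was 3.33 ± 0.689 FPKM (SD, n = 3) in sedentary labelled WT, 15.5 ± 0.680 FPKM in sedentary labelled strNrip1-/-, 3.62 ± 1.12 FPKM in trained labelled WT and 17.4 ± 3.02 FPKM in trained labelled strNrip1-/- muscle. FPKM, fragments per kilobase of transcript scaled by a depth factor for each library, allows levels of different genes to be set side by side. By the study's methods the loxP sites flank the coding exon, and a level per gene does not show which exons the reads came from. Every direction given below rests on the labels.

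Glycogen is a branched store of glucose that fast fibers draw on during contraction. Glucose 6-phosphate is turned into glucose 1-phosphate by phosphoglucomutase and into UDP-glucose by Ugp2. Glycogen synthase (Gys1) adds glucose from UDP-glucose to chains started on glycogenin (Gyg), and the branching enzyme Gbe1 makes the branch points. Glycogen phosphorylase (Pygm) releases glucose 1-phosphate from the chains and is switched on by phosphorylase kinase, of which Phka1 is the muscle alpha (regulatory) subunit and Phkg1 the muscle gamma (catalytic) subunit. Ppp1r3a and Ppp1r3c bring protein phosphatase 1 to glycogen, where it activates the synthase and inactivates the phosphorylase. Fast glycolytic muscle is known for its high phosphorylase and its reliance on this store.

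In labelled strNrip1-/- muscle, the synthesis genes Gys1 and Gbe1 stood above labelled WT, and the breakdown genes Pygm and Phka1 stood below it. Not every gene of a branch moved this way, as Ugp2 of the synthesis branch was lower and Phkg1 of the breakdown branch gave no call. Ppp1r3a, which helps to activate the synthase, was called lower in trained muscle. Of 21 other pathway genes tested, 2 lay higher and 4 lower without overlap. Gyg and Pgm1, on the synthesis side, were among the lower ones, so that side did not rise as a whole. In FPKM as deposited, the 12 libraries separated by labelled genotype without overlap in each of Gys1, Gbe1, Pygm and Phka1. Over all genes tested, 6.19% separated the 6 labelled strNrip1-/- libraries from the 6 labelled WT libraries in this way. The plot of FPKM by library shows the 9 genes.

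**Figure D1:**
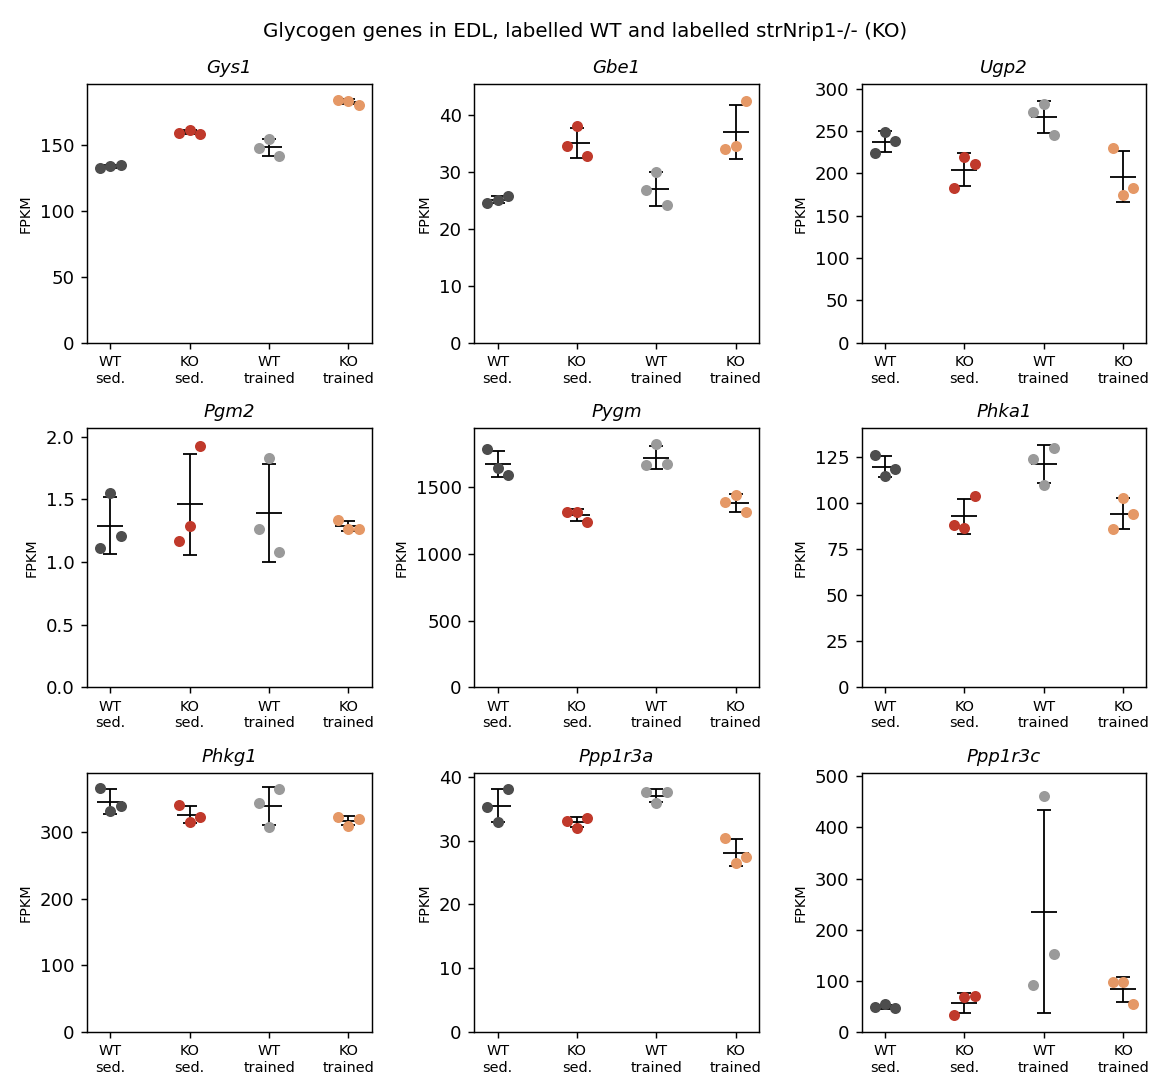
FPKM (linear axis from 0) of the 9 glycogen genes in each of 12 EDL libraries; points are libraries, bars are mean ± SD of 3, KO is labelled strNrip1-/- and sed. is sedentary. Gys1 and Gbe1 sit higher and Pygm and Phka1 lower in all 6 labelled strNrip1-/- libraries, whereas 1 trained labelled WT library carries the highest Ppp1r3c, at 462 FPKM.

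Because these 4 genes separated the labelled genotypes, the sequence in front of each is shown. The sequences come from RefSeq promoters of GRCm38.p6, which matched all 9 genes, and give up to 250 bases before the start in the gene's own 5′ to 3′ direction, without any base of an annotated exon. Capitals mark CAGCTG, an E-box of the kind bound by myogenic factors.

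Gys1 (chr7:45434710-45434838, plus strand): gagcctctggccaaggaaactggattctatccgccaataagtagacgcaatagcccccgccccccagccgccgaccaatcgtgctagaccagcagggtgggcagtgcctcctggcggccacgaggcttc
Gbe1 (chr16:70313699-70313948, plus strand): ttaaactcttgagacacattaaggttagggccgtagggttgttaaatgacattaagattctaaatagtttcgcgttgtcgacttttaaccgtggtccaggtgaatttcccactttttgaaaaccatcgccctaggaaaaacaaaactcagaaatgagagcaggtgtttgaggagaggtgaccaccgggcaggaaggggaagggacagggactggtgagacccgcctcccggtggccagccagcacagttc
Pygm (chr19:6384158-6384398, plus strand): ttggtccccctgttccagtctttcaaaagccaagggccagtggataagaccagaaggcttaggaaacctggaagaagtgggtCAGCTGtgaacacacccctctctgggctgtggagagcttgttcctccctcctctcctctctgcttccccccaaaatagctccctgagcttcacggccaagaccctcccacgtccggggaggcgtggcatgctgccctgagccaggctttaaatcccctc
Phka1 (chrX:102644247-102644496, minus strand): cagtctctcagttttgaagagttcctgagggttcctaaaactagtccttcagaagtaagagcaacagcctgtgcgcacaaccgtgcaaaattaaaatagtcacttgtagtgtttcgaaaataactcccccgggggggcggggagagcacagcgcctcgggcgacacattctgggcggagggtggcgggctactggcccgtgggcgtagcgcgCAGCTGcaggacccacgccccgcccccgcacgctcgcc

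The 250 bases before each start were searched on both strands for 4 motifs, chosen after the data were seen. RefSeq lists 10 promoters for the 9 genes, since Ugp2 has an upstream and a downstream start. CAGCTG was found in 6 of the 10 (Gys1, the downstream one of Ugp2, Pygm, Phka1, Ppp1r3a and Ppp1r3c) and in 13% of 32851 promoters. The Gys1 match lies 206 to 201 bases before the start, in an exon of the divergent gene Ruvbl2, and is not in the stretch printed. Pygm held a match 168 to 163 bases before the start and another 8 to 3 bases before it, the latter in an annotated exon of Pygm and likewise not printed, and Phka1 held its match 38 to 33 bases before the start. CACGTG, another E-box, was found before Ppp1r3c, 104 to 99 bases from the start, and in 6.02% of promoters. The MEF2 consensus was found before Ppp1r3a, 100 to 91 bases from the start, and in 2.92% of promoters. AAGGTCA, the half-site bound by estrogen-related receptors, was found before none of the 9 and in 4.08% of promoters. A match describes the letters and shows no binding.

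Levels differed widely between the 9 genes in FPKM. In sedentary labelled WT muscle the mean level ran from Pygm at 1676 FPKM through Phkg1 at 346, Ugp2 at 237, Gys1 at 134, Phka1 at 120, Ppp1r3c at 49.2, Ppp1r3a at 35.5 and Gbe1 at 25.1 to Pgm2 at 1.29 FPKM. The ranges of neighbors in that order did not overlap. The order changed at the lower end in sedentary labelled strNrip1-/- muscle, where Gbe1, at 35.2 FPKM, came before Ppp1r3a, at 32.9 FPKM, with overlapping ranges. In trained labelled strNrip1-/- muscle Gbe1, at 37.0 FPKM, and Ppp1r3a, at 28.1 FPKM, no longer overlapped. In trained labelled WT muscle Ppp1r3c had a mean of 235 FPKM that 1 library raised. Its libraries ran from 91.5 to 462 FPKM and so spanned the ranges of Phkg1, Ugp2, Gys1 and Phka1. In trained labelled strNrip1-/- muscle Ugp2 overlapped with Gys1, and Phka1 with Ppp1r3c.

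EDL expressed the muscle isoforms of these enzymes. Gys1 made up at least 99.5% of the FPKM of the glycogen synthases in every library, against the liver form Gys2. Pygm made up 99.5% to 99.8% of the phosphorylases, Phka1 97.3% to 98.6% of the alpha subunits and Phkg1 97.0% to 98.0% of the gamma subunits. The phosphoglucomutase symbols need care. The gene named Pgm2 in the table (ENSMUSG00000029171) made up 0.393% to 0.856% of its family, and the gene named Pgm1 (ENSMUSG00000025791), which RefSeq also lists under the synonym Pgm2, made up 94.1% to 96.9%. Pgm1 is therefore the phosphoglucomutase of this muscle by level, and Pgm2 is described here only because it was chosen by symbol.

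Gene models are given on GRCm38 (GENCODE M21, 1-based). Gys1 (ENSMUSG00000003865) is on chromosome 7, plus strand, at 45434844 to 45456619, Gbe1 (ENSMUSG00000022707) on chromosome 16, plus strand, at 70313949 to 70569716, Pygm (ENSMUSG00000032648) on chromosome 19, plus strand, at 6384399 to 6398459 and Phka1 (ENSMUSG00000034055) on chromosome X, minus strand, at 102513975 to 102644246. Ugp2 (ENSMUSG00000001891) is on chromosome 11, minus strand, at 21321138 to 21371201, Phkg1 (ENSMUSG00000025537) on chromosome 5, minus strand, at 129863421 to 129898549, Ppp1r3a (ENSMUSG00000042717) on chromosome 6, minus strand, at 14713977 to 14755274 and Ppp1r3c (ENSMUSG00000067279) on chromosome 19, minus strand, at 36731731 to 36736653. The kit did not keep strand, and genes on the opposite strand overlapped the spans of Gys1 (Ruvbl2), Ugp2 (Gm12043) and Phkg1 (Sumf2 and Zbed5). The protein-coding gene Chchd2 overlapped the span of Phkg1 on the same strand. Whether exons of these genes overlap was not examined, so it is not known if their reads could be mixed. No annotated gene overlapped Gbe1, Pygm, Phka1, Ppp1r3a or Ppp1r3c.

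The first comparison asked which glycogen genes differed between the labelled genotypes without training. In sedentary muscle Gbe1 rose and Pygm fell in labelled strNrip1-/- libraries, and the other 7 genes did not pass. Calls required a limma adjusted p under 0.05 and a fold change above 1.2 on the log2(FPKM + 0.5) scale. This was 2 of 9 genes, 1 in each direction, where 3.51% of the 12744 genes tested were called, 1.92% higher and 1.59% lower. The median absolute log2 difference was 0.22 over the 9 genes and 0.14 over all genes tested.

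In trained muscle 6 of 9 genes passed. Gys1 and Gbe1 rose and Ugp2, Pygm, Phka1 and Ppp1r3a fell in labelled strNrip1-/- libraries. Of all genes tested 5.98% were called, 3.21% higher and 2.77% lower. The median absolute log2 difference was 0.36 over the 9 genes and 0.16 over all genes tested. Averaged over the training states, which sets 6 libraries against 6, 5 of 9 genes passed, with Gys1 and Gbe1 higher and Ugp2, Pygm and Phka1 lower, and 8.80% of all genes tested were called, 4.90% higher and 3.91% lower. The split of calls over all genes depended on how libraries were scaled. As deposited, 54.8% of the sedentary calls, 53.7% of the trained calls and 55.6% of the averaged calls were higher. With libraries rescaled to the same sum these shares were 18.6%, 80.9% and 45.0%, and with the same sum over nuclear genes they were 82.7%, 75.9% and 77.5%. Rescaling to the same sum shifted the median of all genes by -0.14 on the log2 scale in the sedentary comparison. The signs of Gys1, Gbe1, Ugp2, Pygm, Phka1 and Ppp1r3a were the same under each scaling, but the sizes moved. Over all alternative settings the sedentary Gys1 difference ran from 0.10 to 0.33, with limma adjusted p values up to 0.482. The separation of the 12 libraries was counted on FPKM as deposited only. With libraries rescaled to the same sum, the labelled genotypes overlap in Gys1. P-values measure the spread between libraries, which the labels do not tie to separate animals, and in bulk muscle fewer cells of a type and less RNA per cell cannot be told apart.

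**Figure D2:**
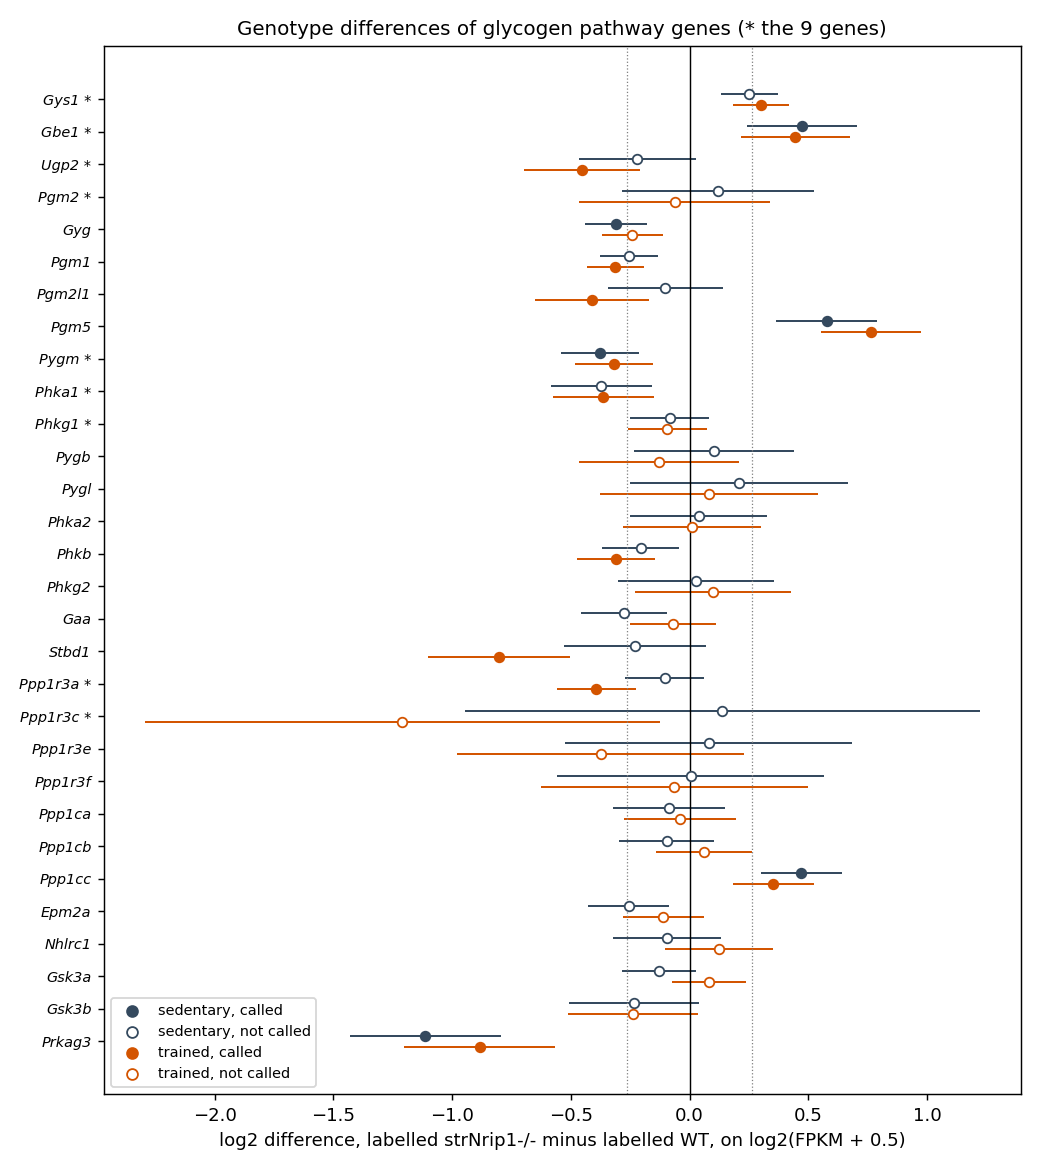
Log2 difference, labelled strNrip1-/- minus labelled WT, on log2(FPKM + 0.5) for the 9 genes (marked *) and 21 tested genes of the wider pathway, in sedentary and trained muscle. Lines are 95% confidence intervals from limma with 3 libraries a group, filled points were called, and dotted lines mark the 1.2-fold limit. Among the 9 genes Gbe1 has its points at 0.47 and 0.45, right of the limit, and Pygm at -0.38 and -0.32, left of it.

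The tissue label was checked against markers, and some marker levels moved with the labelled genotypes. The 6 myofiber markers (Ckm, Acta1, Mylpf, Tnnt3, Atp2a1 and Myh4) summed to 96032 to 103000 FPKM in sedentary labelled WT, 72982 to 90709 FPKM in sedentary labelled strNrip1-/-, 95618 to 114551 FPKM in trained labelled WT and 82846 to 85845 FPKM in trained labelled strNrip1-/- libraries. Their log2 differences by genotype were all below 0, from -0.44 to -0.18 in sedentary and from -0.46 to -0.10 in trained muscle, with 0 of 6 called by limma in either state and 3 of 6 on average. They thus lay lower together with Pygm, Phka1 and Ugp2, and opposite to Gys1 and Gbe1. Of the 4 fiber-type myosins, 0 were called in sedentary muscle, 1 in trained muscle and 2 on average, Myh4 at -0.37 and Myh2 at 0.36. Myh4 of type 2B fibers had log2 differences of -0.35 and -0.39 in sedentary and trained muscle, with limma adjusted p values of 0.182 and 0.101. Myh1 of type 2X fibers had 0.22 and 0.38, with adjusted p values of 0.632 and 0.243. Myh7 of slow fibers had -0.29 and -0.98, with adjusted p values of 0.952 and 0.752, and its trained means were 18.0 FPKM in labelled WT and 3.19 FPKM in labelled strNrip1-/- libraries. Myh2 of type 2A fibers had 0.01 in sedentary muscle and 0.71 in trained muscle, where its adjusted p was 0.0109 and its means were 214 FPKM in labelled WT and 352 FPKM in labelled strNrip1-/- libraries. The 6 adipocyte markers summed to 12.4 to 25.5 FPKM in sedentary labelled WT, 43.1 to 116 FPKM in sedentary labelled strNrip1-/-, 35.1 to 76.9 FPKM in trained labelled WT and 43.8 to 113 FPKM in trained labelled strNrip1-/- libraries, and none was called. The 6 endothelial markers summed to 69.6 to 80.6 FPKM over the labelled WT and to 79.2 to 90.9 FPKM over the labelled strNrip1-/- libraries, and 1 of them, Tie1, was called in trained muscle and 2, Tie1 and Cdh5, on average. The macrophage, fibroblast, Schwann cell, blood, tendon and satellite cell lists gave 0 calls. Transcripts of the mitochondrial genome held 51.2% to 52.8% of all FPKM in sedentary labelled strNrip1-/- libraries and 42.2% to 47.3% in the other 3 groups. The part of these values in the differences of the glycogen genes was not tested.

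Gys1, the muscle glycogen synthase, stood at 133, 134 and 135 FPKM in the sedentary labelled WT libraries and at 159, 162 and 159 FPKM in the sedentary labelled strNrip1-/- libraries. It stood at 148, 155 and 142 FPKM in trained labelled WT and at 184, 184 and 181 FPKM in trained labelled strNrip1-/- muscle. In FPKM as deposited, the 4 groups formed steps that did not overlap, with sedentary labelled WT lowest and trained labelled strNrip1-/- highest. With libraries rescaled to the same sum, the labelled genotypes overlap. The training steps within labelled WT and labelled strNrip1-/- muscle were not called, at limma adjusted p values of 0.492 and 0.236. The share of all genes with 3 libraries apart from 3 was not counted, here or for the genes below. The log2 difference by genotype was 0.25 ± 0.0522 (SE) in sedentary muscle, with an adjusted p of 0.0235 from limma, and stayed just under the 1.2-fold limit of 0.263. In trained muscle it was 0.30 ± 0.0522 with an adjusted p of 0.00740, and passed. The average of both was 0.28 ± 0.0369, with an adjusted p of 0.000784. Quantile normalization brought the trained difference to 0.24 and below the limit, and the average fell below it, at 0.26, without trained labelled WT replicate 3.

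Gbe1, which makes the branch points of glycogen, stood at 24.5, 25.1 and 25.8 FPKM in sedentary labelled WT and at 34.6, 38.0 and 32.8 FPKM in sedentary labelled strNrip1-/- muscle. It stood at 26.9, 30.1 and 24.1 FPKM in trained labelled WT and at 34.0, 34.6 and 42.4 FPKM in trained labelled strNrip1-/- muscle. All 6 labelled strNrip1-/- libraries lay above all 6 labelled WT libraries. The log2 difference was 0.47 ± 0.103 (SE) in sedentary muscle and 0.45 ± 0.103 in trained muscle, with limma adjusted p values of 0.0293 and 0.0288. The average was 0.46 ± 0.0728, with an adjusted p of 0.00222. The sedentary call was lost without any 1 of the 3 sedentary labelled WT libraries or without sedentary labelled strNrip1-/- replicate 1 or 2, at adjusted p values of 0.0758 to 0.115. The trained call was lost without trained labelled WT replicate 1 or 3 or trained labelled strNrip1-/- replicate 2 or 3, at 0.0571 to 0.109, and the averaged call was kept in all 12 such fits.

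Ugp2, which makes UDP-glucose, the donor for Gys1, went the opposite way from Gys1 and Gbe1. It stood at 225, 249 and 238 FPKM in sedentary labelled WT and at 182, 220 and 211 FPKM in sedentary labelled strNrip1-/- muscle. In trained muscle it stood at 272, 282 and 246 FPKM in labelled WT and at 230, 174 and 183 FPKM in labelled strNrip1-/- libraries. The labelled genotypes did not overlap within either training state, but trained labelled strNrip1-/- replicate 1 lay above the lowest sedentary labelled WT library. The log2 difference was -0.22 ± 0.110 (SE) in sedentary muscle, with an adjusted p of 0.361, and -0.45 ± 0.110 in trained muscle, with an adjusted p of 0.0344 from limma. The average was -0.34 ± 0.0776, with an adjusted p of 0.0177. The trained call was lost in 7 of 12 fits that left out 1 library, without sedentary labelled WT replicate 1 or 3, any trained labelled WT library or trained labelled strNrip1-/- replicate 2 or 3, at adjusted p values of 0.0502 to 0.135, and with the replicate number as a block. The averaged call was kept in all 12.

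Pgm2, as named in the table, was near the filter, at 1.08 to 1.92 FPKM over the 12 libraries. At the estimated depth this corresponds to about 48.7 to 102 fragments on its longest transcript. Its groups overlapped in every comparison, and the log2 differences by genotype were 0.12 ± 0.182 (SE) in sedentary and -0.06 ± 0.182 in trained muscle. The 95% interval in trained muscle ran from -0.46 to 0.34, so a change of the size seen in Gys1 was not detectable at this level.

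Pygm, the muscle glycogen phosphorylase, was the most abundant of the 9 transcripts. It stood at 1785, 1646 and 1596 FPKM in sedentary labelled WT and at 1316, 1315 and 1237 FPKM in sedentary labelled strNrip1-/- muscle. The trained values were 1670, 1822 and 1674 FPKM in labelled WT and at 1386, 1443 and 1314 FPKM in labelled strNrip1-/- libraries. Its highest labelled strNrip1-/- library, 1443 FPKM, lay below its lowest labelled WT library, 1596 FPKM. The log2 difference was -0.38 ± 0.0732 (SE) in sedentary and -0.32 ± 0.0732 in trained muscle, with limma adjusted p values of 0.0176 and 0.0282. The average was -0.35 ± 0.0517, with an adjusted p of 0.00152. The sedentary call was lost without sedentary labelled WT replicate 1 or 2 or sedentary labelled strNrip1-/- replicate 1, at adjusted p values of 0.0515 to 0.0896. The trained call was lost without any 1 of the 6 trained libraries, at 0.0623 to 0.127, and the averaged call was kept in all 12 such fits.

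Phka1, the regulatory alpha subunit of muscle phosphorylase kinase, stood at 126, 115 and 119 FPKM in sedentary labelled WT and at 88.1, 86.5 and 104 FPKM in sedentary labelled strNrip1-/- muscle. After training the levels were 124, 110 and 130 FPKM in labelled WT and at 86.0, 103 and 94.2 FPKM in labelled strNrip1-/- libraries. All 6 labelled strNrip1-/- libraries lay below all 6 labelled WT libraries. The log2 difference was -0.37 ± 0.0950 (SE) in sedentary muscle, with an adjusted p of 0.0597 that missed the threshold, and -0.36 ± 0.0950 in trained muscle, with an adjusted p of 0.0470 from limma. The average was -0.37 ± 0.0672, with an adjusted p of 0.00500. The sedentary difference passed without trained labelled WT replicate 2 or sedentary labelled strNrip1-/- replicate 3. It also passed with the filter at a mean of at least 5 FPKM, at a limma adjusted p of 0.0415, where 484 of 6849 genes were called. The trained call was kept only without trained labelled WT replicate 2 or sedentary labelled strNrip1-/- replicate 2 or 3, and was lost in the other 9 of 12 fits, at 0.0594 to 0.157. It was also lost with a replicate block.

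Phkg1, the catalytic gamma subunit of the same enzyme, gave no call. It ran from 332 to 366 FPKM in sedentary labelled WT, from 315 to 341 FPKM in sedentary labelled strNrip1-/-, from 308 to 365 FPKM in trained labelled WT and from 309 to 323 FPKM in trained labelled strNrip1-/- muscle, and the labelled genotypes overlapped within each training state. Its log2 difference was -0.08 ± 0.0729 (SE) in sedentary muscle, with a 95% interval from -0.24 to 0.08, and -0.09 ± 0.0729 in trained muscle, with an interval from -0.25 to 0.07. The ratio of Phkg1 to Phka1 within each library does not depend on how libraries are scaled. It was 2.88 ± 0.0181 (SD, n = 3) in sedentary labelled WT, 3.54 ± 0.393 in sedentary labelled strNrip1-/-, 2.79 ± 0.0238 in trained labelled WT and 3.38 ± 0.371 in trained labelled strNrip1-/- muscle. The lowest labelled strNrip1-/- library, at 3.01, lay above the highest labelled WT library, at 2.90. Phka1 alone already separated these libraries and Phkg1 varied little, so the ratio adds no separate support. The share of other gene pairs that separate in this way was not counted.

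Ppp1r3a, the glycogen-targeting subunit of protein phosphatase 1 known from skeletal muscle, stood at 35.3, 33.0 and 38.2 FPKM in sedentary labelled WT and at 33.1, 32.1 and 33.6 FPKM in sedentary labelled strNrip1-/- muscle, and these groups overlapped. The trained libraries gave 37.7, 35.9 and 37.7 FPKM in labelled WT and at 30.5, 26.5 and 27.5 FPKM in labelled strNrip1-/- libraries, which lay below every other library of the experiment. The log2 difference was -0.10 ± 0.0738 (SE) in sedentary muscle, with an adjusted p of 0.572, and -0.39 ± 0.0738 in trained muscle, with an adjusted p of 0.0109 from limma. The trained call was lost without trained labelled strNrip1-/- replicate 2 or 3, at adjusted p values of 0.0524 and 0.0527. The averaged difference of -0.25 ± 0.0522 had an adjusted p of 0.0109 and stayed under the fold limit.

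Ppp1r3c, another glycogen-targeting subunit, was the most variable of the 9 genes. It stood at 48.3, 53.7 and 45.7 FPKM in sedentary labelled WT and at 33.8, 67.6 and 69.1 FPKM in sedentary labelled strNrip1-/- muscle. In trained muscle it stood at 91.5, 462 and 152 FPKM in labelled WT and at 97.5, 97.2 and 54.2 FPKM in labelled strNrip1-/- libraries. Every trained labelled WT library lay above every sedentary labelled WT library, and replicate 2 stood apart from the other two. The labelled genotypes overlapped in both training states. The log2 difference by genotype was 0.14 ± 0.492 (SE) in sedentary and -1.21 ± 0.492 in trained muscle, and the limma adjusted p values were 0.936 and 0.185. The trained difference was -0.55 when replicate 2 of trained labelled WT was left out.

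Other settings ended some of these calls. With only the 6 libraries of a comparison in the fit, the sedentary and trained calls of Gbe1 and Pygm and the trained calls of Ugp2 and Phka1 were lost. Rescaling to the same sum ended the sedentary call of Gbe1, the trained calls of Pygm, Phka1 and Ppp1r3a and the averaged call of Gys1, at 0.23, and made Ugp2 pass in sedentary muscle, at -0.38. The same sum over nuclear genes ended the trained calls of Phka1 and Ppp1r3a and the averaged call of Phka1 and made Gys1 pass in sedentary muscle, at 0.33. Quantile normalization ended the trained call of Phka1 and the averaged call of Gys1, at 0.24. Omitting the filter on low values ended the trained calls of Pygm and Phka1, and omitting the mean-dependent prior ended the sedentary call of Gbe1 and the trained calls of Ugp2 and Phka1. Averaged Ppp1r3a passed with the same sum, at -0.29, and with quantile normalization, at -0.27.

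Synthase and phosphorylase were also compared within libraries. The ratio of Pygm to Gys1 was 12.5 ± 0.830 (SD, n = 3) in sedentary labelled WT and 8.07 ± 0.248 in sedentary labelled strNrip1-/- muscle. It was 11.6 ± 0.287 in trained labelled WT and 7.55 ± 0.298 in trained labelled strNrip1-/- muscle. The labelled strNrip1-/- libraries ran from 7.26 to 8.27 and the labelled WT libraries from 11.3 to 13.4, so that the genotypes were apart in both training states under any scaling of the libraries. This separation follows from the opposite, non-overlapping levels of Pygm and Gys1 given above and adds no separate support. The mean difference in the log2 ratio was -0.63 in sedentary and -0.62 in trained muscle. The ratio of Ppp1r3a to Ppp1r3c ran from 0.614 to 0.836 in sedentary labelled WT and from 0.0777 to 0.412 in trained labelled WT muscle, with the lowest value in the library of high Ppp1r3c. It ran from 0.474 to 0.980 in sedentary labelled strNrip1-/- and from 0.272 to 0.508 in trained labelled strNrip1-/- muscle, where the groups overlapped.

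**Figure D3:**
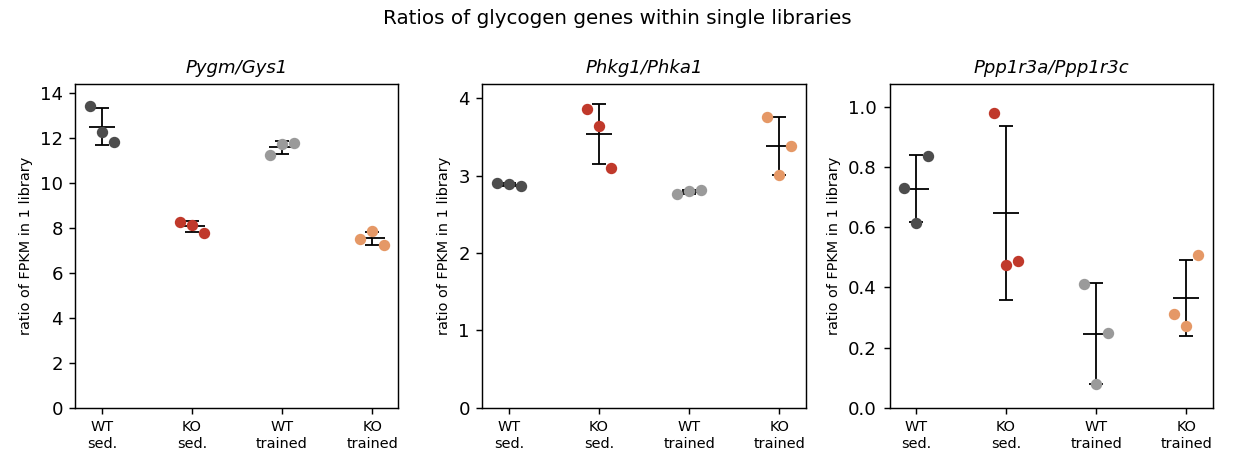
Ratios of FPKM between 2 glycogen genes within each of 12 libraries (linear axes from 0); points are libraries, bars are mean ± SD of 3, KO is labelled strNrip1-/- and sed. is sedentary. Pygm/Gys1 lies between 7.26 and 8.27 in labelled strNrip1-/- and between 11.3 and 13.4 in labelled WT libraries.

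Training was compared within each labelled genotype to ask whether wheel running moved the glycogen genes. No gene among the 9 passed in either genotype, where limma called 0% of all genes tested in labelled WT and 0% in labelled strNrip1-/- muscle. Unadjusted p values under 0.05 were found for 2 of the 9 genes in labelled WT muscle, Gys1 and Ppp1r3c, and for 2 in labelled strNrip1-/- muscle, Gys1 and Ppp1r3a. Over all genes tested they were found for 1061 and 1544 genes. limma without a mean-dependent prior also called 0 in both. Other settings called some genes, none of them among the 9. With the filter at a mean of at least 5 FPKM, 8 were called in labelled WT and 5 in labelled strNrip1-/- muscle. Quantile normalization and the replicate block each called 4 in labelled WT and 0 in labelled strNrip1-/- muscle. Without trained labelled WT replicate 1 the calls were 30 and 3. Gys1 had log2 differences of 0.15 ± 0.0522 (SE) in labelled WT and 0.19 ± 0.0522 in labelled strNrip1-/- muscle, with limma adjusted p values of 0.492 and 0.236. Rescaling libraries to the same sum, which shifted the median of all genes by 0.16 in labelled strNrip1-/- muscle, gave a Gys1 difference of 0.37 there that passed, on a scale where 150 of 12752 genes were called and 95.3% of them were higher. Ppp1r3c had a difference of 1.91 ± 0.492 in labelled WT muscle, with an adjusted p of 0.402, and of 0.56 ± 0.492 in labelled strNrip1-/- muscle. Without trained labelled WT replicate 2 the former was 1.25. Ppp1r3a had a difference of -0.23 ± 0.0738 in labelled strNrip1-/- muscle, with an adjusted p of 0.285.

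Averaged over genotypes, training gave 0 calls among the 9 genes and 0.118% over all genes tested. limma without a mean-dependent prior called 11 of all genes there, against 15 with it. With the prior, 2 of the 9 genes and 1466 of the 12744 genes tested had unadjusted p values under 0.05. Ppp1r3c was at 1.24 ± 0.348 (SE), with a limma adjusted p of 0.173, and passed without trained labelled WT replicate 1, at a difference of 1.49 and an adjusted p of 0.0408, in a fit where the calls over all genes rose from 15 to 189. Gbe1, Pygm, Phka1 and Phkg1 had averaged training differences between -0.04 and 0.08. The interaction of genotype and training, which tests whether the genotype difference itself depended on training, called 0% of all genes and none of the 9 in limma. It had 989 unadjusted p values under 0.05 over all genes tested, and 977 without the mean-dependent prior, which called 0 too. Ppp1r3a was the 1 gene of the 9 with an unadjusted p under 0.05, at an interaction of -0.29 ± 0.104 and an adjusted p of 0.593. Ppp1r3c had -1.35 ± 0.696 and Ugp2 had -0.23 ± 0.155, with adjusted p values of 0.667 and 0.736. The genotype differences of Ugp2 and Ppp1r3a, past the threshold in trained and not in sedentary muscle, were therefore not shown to differ between the training states.

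**Figure D4:**
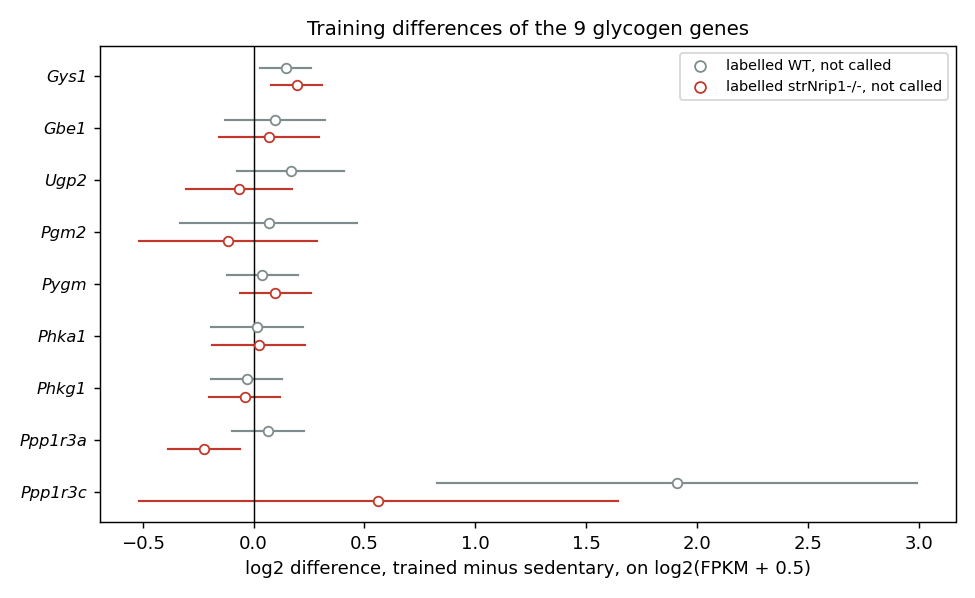
Log2 difference, trained minus sedentary, on log2(FPKM + 0.5) for the 9 glycogen genes in labelled WT and labelled strNrip1-/- muscle. Lines are 95% confidence intervals from limma with 3 libraries a group; open points were not called, and none was called. Ppp1r3c has the widest intervals, with a difference of 1.91 in labelled WT.

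A wider list of 25 genes of the pathway was examined in the same fit, and 21 of them passed the filter on low values (Gys2, Ppp1r3b, Ppp1r3d and Ppp1r3g did not). In sedentary muscle 4 of the 21 were called, 2 higher and 2 lower in labelled strNrip1-/- libraries, where 3.51% of all genes tested were called. In trained muscle 7 were called, 2 higher and 5 lower, beside 5.98% of all genes. Averaged over training states 6 were called, 2 higher and 4 lower, beside 8.80% of all genes. Training and the interaction gave 0 calls in this list. In 6 of the 21 genes the 6 labelled strNrip1-/- libraries did not overlap with the 6 labelled WT libraries, as in 6.19% of all genes.

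On the synthesis side, Gyg (glycogenin), the protein primer of each glycogen particle, fell in sedentary labelled strNrip1-/- muscle. It stood at 262, 255 and 256 FPKM in labelled WT and at 215, 206 and 202 FPKM in sedentary labelled strNrip1-/- libraries. Its log2 difference was -0.31 ± 0.0573 (SE), with a limma adjusted p of 0.0138, and was lost without sedentary labelled WT replicate 1 or 3, with the same sum over nuclear genes, with quantile normalization and with only the 6 sedentary libraries, at adjusted p values of 0.0554 to 0.225. In trained muscle the difference of -0.24 had an adjusted p of 0.0323 and stayed under the fold limit. Pgm1, the abundant phosphoglucomutase, fell in trained muscle, from 266 to 270 FPKM in labelled WT to 210 to 220 FPKM in labelled strNrip1-/- libraries. Its trained log2 difference was -0.31, with an adjusted p of 0.00681. Both rescalings ended that call, at -0.25 and an adjusted p of 0.130 with the same sum and at -0.27 and 0.0774 with the same sum over nuclear genes. The sedentary difference of -0.26, with an adjusted p of 0.0243, stayed under the fold limit, and passed with the same sum, at -0.41. Pgm5, a family member known as a structural protein without enzyme activity, rose in both states, by 0.58 and 0.76 on the log2 scale with limma adjusted p values of 0.00751 and 0.00129, from 4.97 to 5.36 FPKM over the labelled WT libraries to 7.12 to 9.96 FPKM over the labelled strNrip1-/- libraries. Its sedentary call was lost with the same sum, at an adjusted p of 0.0707, and with only the 6 sedentary libraries, at 0.0503. Pgm2l1, at 2.04 to 3.45 FPKM, passed in trained muscle at -0.41 with an adjusted p of 0.0478, and that call was lost without any 1 of the 12 libraries and under both rescalings.

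On the breakdown side, Phkb, the beta subunit of phosphorylase kinase, stood at 206 to 219 FPKM in trained labelled WT and at 162 to 184 FPKM in trained labelled strNrip1-/- muscle. It fell in trained muscle, with a log2 difference of -0.31 and a limma adjusted p of 0.0308. Its sedentary difference of -0.21 had an adjusted p of 0.174. Its call in trained muscle was lost without any 1 of the trained labelled WT libraries or trained labelled strNrip1-/- replicate 2 or 3, under both rescalings, without the mean-dependent prior and with only the 6 trained libraries. With the same sum it passed in sedentary muscle instead, at -0.36. Stbd1, which binds glycogen and links it to autophagy, ran from 18.0 to 22.1 FPKM in trained labelled WT and from 9.52 to 13 FPKM in trained labelled strNrip1-/- muscle. It fell by 0.80 on the log2 scale there, with an adjusted p of 0.00645, and its sedentary difference of -0.23 had an adjusted p of 0.457. Gaa, the lysosomal glucosidase, had -0.27 in sedentary and -0.07 in trained muscle, with adjusted p values of 0.0985 and 0.692. Pygb, Pygl, Phka2 and Phkg2, the non-muscle isoforms, gave no call.

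Among regulators, Prkag3, the fast-muscle gamma subunit of AMP-activated protein kinase that is known to influence glycogen content, showed the largest difference of the wider list. It stood at 72.2, 60.6 and 61.8 FPKM in sedentary labelled WT and at 33.3, 25 and 31.2 FPKM in sedentary labelled strNrip1-/- muscle, and at 62.8, 44.5 and 61.9 FPKM and 32.0, 29.7 and 28.4 FPKM in trained muscle. The labelled genotypes did not overlap. Its log2 differences were -1.11 ± 0.143 (SE) and -0.88 ± 0.143, with limma adjusted p values of 0.00181 and 0.00539, and both calls were kept in all 12 fits that left out 1 library. Ppp1cc, a catalytic subunit of protein phosphatase 1, rose by 0.47 in sedentary and 0.35 in trained muscle, with adjusted p values of 0.00720 and 0.0213. Its call in trained muscle was lost without trained labelled WT replicate 1 or 3 or trained labelled strNrip1-/- replicate 1 or 3, and with only the 6 trained libraries. Ppp1ca and Ppp1cb, the other catalytic subunits, the laforin and malin genes Epm2a and Nhlrc1, the targeting subunits Ppp1r3e and Ppp1r3f, and the synthase kinases Gsk3a and Gsk3b gave no call.

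Genes with profiles most like those of the called members were found by the root mean square difference of centered log2 values over 12 libraries, among 6841 genes whose mean reached 5 FPKM. Gys1 was closest to Twnk, Afg3l2 and Oma1, at 0.0490 to 0.0596. Gbe1 was closest to Got2, Sod2 and Mfn1, at 0.0728 to 0.0812. Ugp2 was closest to Tpd52, Tob1 and Ppp3r1, at 0.0802 to 0.0954. Pygm was closest to Pkm, the muscle pyruvate kinase, then to Pgm1 and Lrrfip1, at 0.0532 to 0.0631. Phka1 was closest to Mia3, Ulk2 and Gfpt1, at 0.0620 to 0.0712, and Ppp1r3a to Rnf11, Cacna2d1 and Pum2, at 0.0536 to 0.0577. For scale, the root mean square deviation of the genes from their own means was 0.165 for Gys1, 0.256 for Gbe1 and 0.187 for Pygm.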

How the data were processed

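RNA-seq libraries of mouse EDL muscle were analysed as deposited, 12 in all and 3 for each of 4 groups given by the sample labels. RNA was DNase-treated, and the library kit was not strand-specific. The authors quantified reads with Salmon (1.10.2) on mm10, summed transcripts by gene (tximport) and ran DESeq2 for their own tests (1.44.0, per the submitters' processing notes). The authors deposited expression as FPKM per gene and library, and the function that gave it is not given in the sources used here. The authors also deposited 8 columns of log2 fold changes and adjusted p-values for their own comparisons, which were not used.

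FPKM is not a count, so log2(FPKM + 0.5) was taken, and the 12744 of 17752 genes whose mean reached 0.5 FPKM were fitted with limma (3.58.1, R 4.3.3), with 4 group means, a mean-dependent prior and two-sided tests with Benjamini-Hochberg adjustment over all genes tested. Calls needed an adjusted p under 0.05 and a fold above 1.2 (the interaction the adjusted p alone). This scale understates changes of low genes. The fit was tested on simulated data. FPKM summed to 1.03 M to 1.32 M per library (M, mega). The median ratio to the geometric mean over libraries was 1.0 in every library, so the deposited values were already on a common median scale. By the spacing of low values, libraries had been scaled by 20.1 M to 29.2 M fragments, with 99.1% to 99.8% of values within 0.15 of a whole fragment. This estimated depth need not equal the fragments sequenced. A 2 kb gene at 1 FPKM held about 33.1 to 47.8 fragments, which covers counting error only. Promoters and synonyms came from RefSeq and gene models from GENCODE M21.

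The 9 genes, the wider list and the marker lists were chosen with earlier results of these data known, and 1 other gene of the pathway is not reported here. The 9 genes were always named, wider genes where called, and the 3 genes most like each member called in a genotype contrast. Alternatives were the pseudocount, the filter, the scaling, the prior, the libraries fitted, a replicate block and leaving out each library.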

Additional observations from a re-analysis of the deposited data

How the results depend on the processing

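The members called in a genotype comparison kept their direction under every alternative run, while the number called varied. Of the 9 genes in sedentary muscle, 2 were called, 1 without the mean-dependent prior, 0 with only the 6 libraries of the comparison, and 0 to 3 when 1 library was left out (0 without sedentary labelled WT replicate 1 or 2 or labelled strNrip1-/- replicate 1, and 1 without labelled WT replicate 3 or labelled strNrip1-/- replicate 2). In trained muscle 6 were called, 3 with libraries rescaled to the same sum, 2 with only 6 libraries, and 1 to 6 when 1 library was left out (1 without trained labelled strNrip1-/- replicate 2 or 3, and 2 without labelled WT replicate 1 or 3). Over all genes tested the calls fell as well, in sedentary muscle from 447 to 338 without the mean-dependent prior, to 166 with only 6 libraries and to 164 without labelled WT replicate 1, and in trained muscle from 762 to 679 with the same sum, to 445 with only 6 libraries and to 315 without labelled strNrip1-/- replicate 3. The wider list gave 4 calls in sedentary muscle and 2 with only 6 libraries. In trained muscle it gave 7, 4 under each of both rescalings and with only 6 libraries, and 4 to 6 when 1 library was left out (4 without trained labelled WT replicate 1 or 3 or labelled strNrip1-/- replicate 3). Training gave 1 call among the 9 genes in labelled strNrip1-/- muscle with the same sum, and 0 to 1 averaged over genotypes when 1 library was left out (1 without trained labelled WT replicate 1). The sedentary log2 ratio of Phkg1 to Phka1, 0.29, ran from 0.22 to 0.38 when 1 library was left out (0.38 without sedentary labelled strNrip1-/- replicate 3). Fits to fewer libraries have fewer residual degrees of freedom, and the cause of the other changes was not tested.

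Among the differences of single genes, signs turned in Ppp1r3c and Pgm2, neither of which was called. Ppp1r3c in sedentary muscle was at -0.0177 with the same sum and ran from -0.0382 to 0.473 when 1 library was left out, below 0 without sedentary labelled strNrip1-/- replicate 2 or 3. Pgm2 ran from -0.0428 to 0.225 in sedentary muscle, below 0 without sedentary labelled strNrip1-/- replicate 3, and from -0.183 to 0.0961 in trained muscle, above 0 without trained labelled WT replicate 2. Its averaged difference was -0.000891 with the same sum and ran from -0.0530 to 0.108, below 0 without sedentary labelled WT replicate 1, trained labelled WT replicate 3 or sedentary labelled strNrip1-/- replicate 3.

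Labels share replicate numbers, but same-numbered libraries did not deviate together in every pair (correlation -0.0520 to 0.195, over 0.1 in 4 of 12 pairs). These correlations cannot decide whether same-numbered libraries share a litter or a batch, which the labels do not give. With a replicate block 2, 4 and 5 of the 9 genes were called in sedentary, trained and averaged comparisons. Over the 12744 genes tested 441, 756 and 1132 were called there. The block ended the trained calls of Ugp2 and Phka1 and no other call of the 9 genes.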
